A study of Mus musculus with 12 samples.

Results

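Lag3, Tigit and 6 further surface proteins that restrain or tune lymphocytes were followed across regulatory T cells (Tregs) of mice from a model of autoimmune diabetes. The 8 genes were Lag3, Tigit, Havcr2, Cd96, Cd226, Cd160, Cd200 and Klrg1. They were taken by symbol, as inhibitory receptors outside the CD28 family and their close partners, from a table of 23361 genes, and all 8 were found. The study set Tregs lacking Lag3 beside wild-type (Wt) Tregs, each from pancreatic islets and from non-draining lymph nodes (NDL), with 3 libraries in each of the 4 groups. The groups were Wt islet, Lag3-deficient islet, Wt NDL and Lag3-deficient NDL. All 12 libraries were described as cytoplasmic RNA of Tregs from the same disease model. The sources used here do not give the mouse strain, age, the Lag3 allele, the cell type in which it was lost or the markers used to sort the cells. Nor do the labels tie the libraries of a group to separate mice, and a p-value then measures only how far these libraries spread, which may be technical.

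Inhibitory receptors are held at the surface of T cells and NK cells, where they dampen signals from the antigen receptor or from activating receptors. LAG-3 is related to CD4 in structure and binds MHC class II, the molecule that presents peptides to CD4+ T cells. TIGIT and CD96 compete with the activating receptor CD226 for the ligand PVR (CD155), and TIGIT also binds nectins, so that the balance among the receptors sets the response. In Tregs, TIGIT marks cells with an activated, strongly suppressive program. TIM-3, the product of Havcr2, binds galectin-9, HMGB1 and CEACAM1. CD160 binds the TNF receptor family protein HVEM, KLRG1 binds cadherins, and CD200 is itself a ligand, read by CD200R1 on myeloid cells.

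Of the 8 genes, Tigit stood apart by tissue. Its RNA was higher in islet than in NDL Tregs in both genotypes, with all 6 islet libraries above all 6 NDL libraries. No member passed the test in any comparison of Lag3-deficient with Wt cells. Lag3 RNA itself was seen mainly in Wt islets and was at or near 0 in both Lag3-deficient groups. Cd96, which shares a ligand with Tigit, passed in no comparison and had its highest means in NDL. Tigit stood nearer Cd96 in islets than in NDL, mainly through the rise of Tigit. The averaged islet minus NDL differences were 3.93 for Tigit and -0.62 for Cd96 in log2(CPM + 1).

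Tigit (ENSMUSG00000071552) lies on the minus strand of chromosome 16 of GRCm38, from 43648867 to 43664146. Cd96 lies on the same chromosome and strand, from 46035657 to 46120251. The 250 bases before each start site, from RefSeq on GRCm38.p6 and written 5′ to 3′ on the minus strand, are shown because these genes compete for 1 ligand and differed in their tissue pattern. Capitals mark GGAAA, the core of NFAT sites, or its reverse complement TTTCC. NFAT is a factor that the antigen receptor switches on. Tigit is at chr16:43664185-43664434 and Cd96 at chr16:46120249-46120498.
Tigit: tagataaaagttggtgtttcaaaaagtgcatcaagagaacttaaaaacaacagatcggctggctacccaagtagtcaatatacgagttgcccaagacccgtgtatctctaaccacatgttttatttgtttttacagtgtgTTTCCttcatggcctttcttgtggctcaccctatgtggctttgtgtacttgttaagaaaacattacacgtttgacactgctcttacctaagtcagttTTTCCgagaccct
Cd96: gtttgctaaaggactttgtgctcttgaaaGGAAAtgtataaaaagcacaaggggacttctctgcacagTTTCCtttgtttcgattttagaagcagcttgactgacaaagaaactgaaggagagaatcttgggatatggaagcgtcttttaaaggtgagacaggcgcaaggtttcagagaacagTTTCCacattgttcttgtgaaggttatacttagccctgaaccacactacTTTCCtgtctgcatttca
The Tigit window held GGAAA at 2 places, 110 and 13 bases before the start, and the Cd96 window held it at 4 places, 221, 182, 67 and 18 bases before the start. On either strand this motif was found in 55.57% of all 32851 promoter windows of the same length, so that its presence is common. The AP-1 motif TGANTCA, found in 6.749% of windows, and the Maf recognition core TGCTGA, found in 16.08%, had no match in either window. Neither did AAAGGTCA, read by the Nr4a factors and found in 1.336% of windows, or the Nfil3 motifs TTACGTAA and TTATGTAA, found in 0.1126% and 0.8188%. Among the other members with a promoter in the table, a Havcr2 window held 1 AP-1 match, 200 bases before its start. Separate Cd160 windows held 1 GGAAA match and 1 TGCTGA match, 145 and 125 bases before their starts. Promoters of 5 of the 8 members were read from the table.

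Levels are given as CPM, each gene's share of the deposited rescaled counts of its library, after trimmed-mean scaling, on the usual CPM scale. A level of 1 CPM was worth about 15.2 to 15.4 rescaled counts. The 12 columns summed to 15232498 to 15370098, which does not give the sequencing depth, and between 11476 and 16574 genes were above 0 in a library. Each group had columns numbered 1, 2 and again 1, written here as 1a, 2 and 1b. Rn45s, a ribosomal RNA gene, took 1.26 to 1.68% of the summed values of the 1b columns and 0.149 to 0.571% of those of the remaining 8. In Lag3-deficient islet 2, Wt NDL 2 and Lag3-deficient NDL 1b the low whole numbers were most often skipped. In the first of these only 3 genes had a value of 1 or 2, while 3232 had a value of 3. In Wt NDL 2 and Lag3-deficient NDL 1b, 3037 and 4586 genes had a value of 1 or 2, and 1539 and 992 a value of 3. At these lowest values the skipping was therefore plain only in the first. The Treg and T cell markers Foxp3, Il2ra, Ikzf2, Cd4, Cd3e and Cd3g summed to 2529 to 4439 CPM in every library. Of these, Cd3g had the highest mean in each group, at 1430 to 1817 CPM. A gene was tested where at least 3 libraries held at least 10 rescaled counts, which 10868 genes met. All 8 members passed, Lag3 only through the 3 Wt islet libraries. Havcr2 reached that level in 5 islet and 2 NDL libraries, so that it too passed only with islet libraries. Differences are in log2(CPM + 1) with their standard error (SE), from limma with p-values adjusted by the Benjamini-Hochberg method over all genes tested in the comparison.

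**Figure D1:**
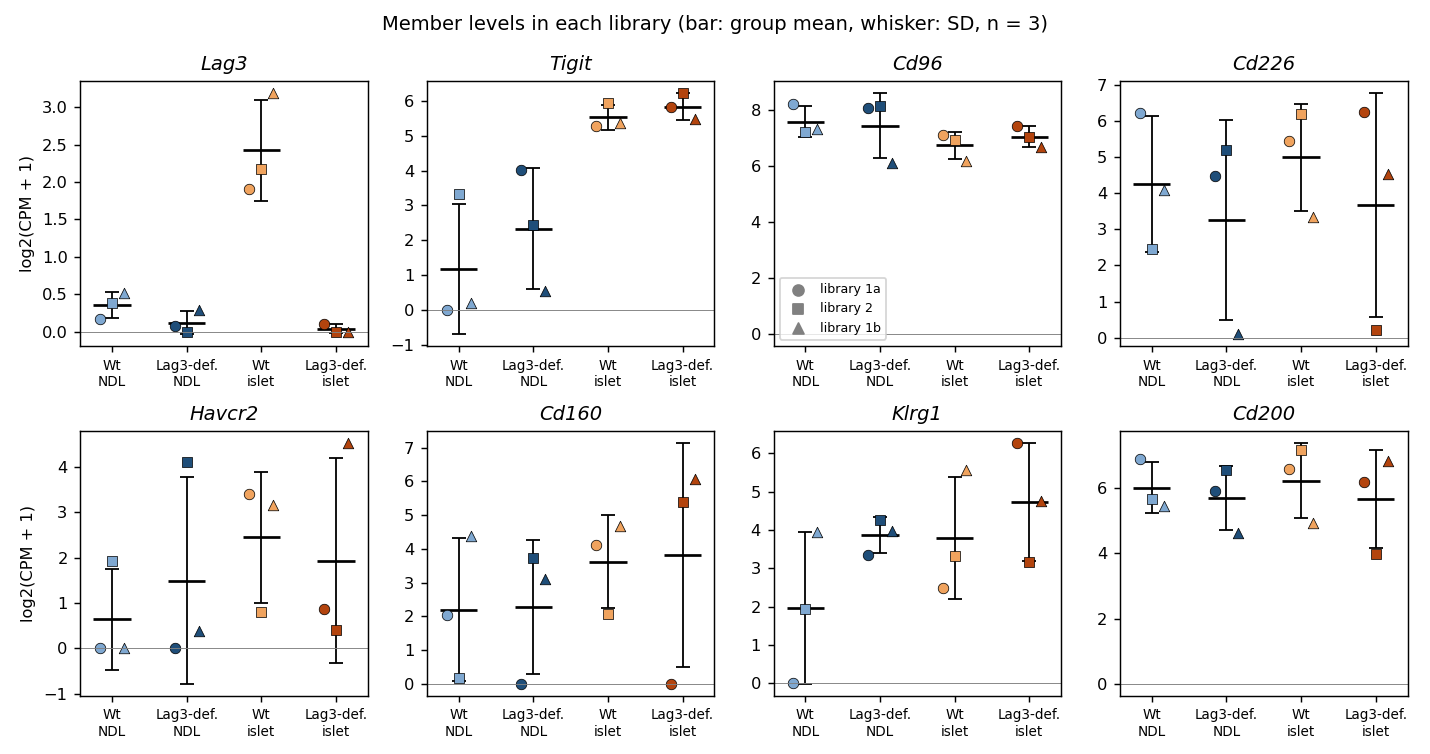
Level of each member in log2(CPM + 1) in each of the 12 libraries, by group, with 1 panel a gene and its own vertical scale. Bars are group means and whiskers the SD of 3 libraries; the 6 islet libraries lie above the 6 NDL libraries for Tigit, and Lag3 is raised in the 3 Wt islet libraries.

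Lag3 was the gene removed in this design, and its values check the genotype labels. Lag3 (ENSMUSG00000030124) lies on the minus strand of chromosome 6, from 124904361 to 124911705. In Wt islets it was at 2.76, 3.52 and 8.14 CPM in libraries 1a, 2 and 1b, from 40, 48 and 120 rescaled counts. In Lag3-deficient islets the rescaled counts were 1, 0 and 0. All 3 Wt islet libraries were above all 3 Lag3-deficient ones, as the labels of these 6 libraries ask. In NDL the Wt libraries held 2, 5 and 6 rescaled counts and the Lag3-deficient ones 1, 0 and 3, ranges that overlap and are too low to check the labels there. The mean over Wt islets was 4.81 ± 2.91 CPM (SD, n = 3), against 0.287 ± 0.157 CPM in Wt NDL.

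The fitted difference of Lag3-deficient from Wt cells in islets was -2.39 ± 0.62 on the log2(CPM + 1) scale for Lag3, with a 95% interval of -3.69 to -1.09 and an adjusted p of 0.85. Of all tested genes, 9.32% had genotype groups that did not overlap in islets, and Lag3 was the 1 member among them. In NDL its difference was -0.24 ± 0.62. Its islet minus NDL difference was 2.07 ± 0.62 in Wt cells, with an interval of 0.77 to 3.37 and an adjusted p of 0.283, and -0.08 ± 0.62 in Lag3-deficient cells. The genotype difference in islets minus that in NDL was -2.15 ± 0.88 (adjusted p = 1). These values are given as a description, since Lag3 was the gene removed, was tested only because it was high in Wt islets, and lies near 0 where the pseudocount of 1 CPM shrinks a difference. With a pseudocount of 0.25 CPM, the genotype difference of Lag3 in islets was -4.06. Cd4, the neighbour of Lag3 on the chromosome, differed by -0.23 between genotypes in islets and by -0.26 in NDL, and its islet minus NDL difference averaged over genotypes was -0.33 ± 0.31 (adjusted p = 0.742).

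Tigit was the 1 member that passed the test, higher in islets. In Wt islets it was at 37.8, 60.7 and 40.3 CPM in libraries 1a, 2 and 1b, and in Lag3-deficient islets at 55.3, 73.9 and 43.4 CPM. In Wt NDL it was at 0, 9.09 and 0.145 CPM, and in Lag3-deficient NDL at 15.2, 4.42 and 0.449 CPM. Every islet library was above the highest NDL library, Lag3-deficient NDL 1a, while the genotypes overlapped within each tissue. Over both genotypes, 1.80% of all tested genes had 6 islet and 6 NDL libraries that did not overlap. Group means were 46.3 ± 12.5 CPM in Wt islets, 57.5 ± 15.4 in Lag3-deficient islets, 3.08 ± 5.21 in Wt NDL and 6.70 ± 7.66 in Lag3-deficient NDL (SD, n = 3 each). In bulk RNA, a smaller share of cells with Tigit and less Tigit RNA in each cell cannot be told apart.

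Averaged over both genotypes, the islet minus NDL difference of Tigit was 3.93 ± 0.91 in log2(CPM + 1), with a 95% interval of 2.03 to 5.83 and an adjusted p of 0.0428. Among all genes tested 0.920% passed, 0.819% as higher and 0.101% as lower in islets, or 89 and 11 genes; without scaling these were 82 and 24 genes. Within a genotype the difference did not pass: it was 4.35 ± 1.28 in Wt (adjusted p = 0.264), where 0.184% of genes passed, and 3.51 ± 1.28 in Lag3-deficient cells (adjusted p = 0.426), where 0.120% passed. The averaged call was close to the threshold. It was kept without Lag3-deficient NDL 1a (adjusted p = 0.0484) or without Wt NDL 2 (adjusted p = 0.0278), and it was lost when any 1 of the other 10 libraries was left out, with adjusted p of 0.0634 to 0.104 and a difference of 3.49 to 4.46 over all 12 omissions. Without the 4 columns called 1b it was 3.37 (adjusted p = 0.176).

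The genotype difference of Tigit was 0.31 ± 1.28 in islets, with a 95% interval of -2.38 to 2.99, and 1.15 ± 1.28 in NDL, with an interval of -1.53 to 3.84. Neither passed the test (adjusted p = 0.998 and 1). Both intervals hold large differences in either direction, so that like levels in the genotypes were not shown. The difference between these genotype effects was -0.85 ± 1.82.

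Markers of other cells also differed by tissue in these libraries. The CD8 T and NK cell markers summed to 220 to 409 CPM in Wt islets and 70.3 to 443 in Lag3-deficient islets, against 21.5 to 29.6 in Wt NDL and 55.1 to 115 in Lag3-deficient NDL. Nkg7, a granule membrane protein of cytotoxic cells, made up most of this sum, up to 440 CPM in 1 library. The other markers of this list were lower. Klrk1 was at most 0.299 CPM, Klrb1c 0.330, Gzma 1.32, Ncr1 2.41 and Klrd1 3.74 in any library. Eomes reached 8.92, Cd8b1 9.88 and Cd8a 16.4 CPM, and Gzmk reached 10.5 CPM in Wt islets and was at 0 in NDL. Of the 4 markers tested, 1 passed as higher in islets, both averaged over genotypes and within Wt. The shares of all tested genes were 0.819% and 0.184%. Exocrine pancreas markers summed to 67.8 to 1182 CPM in Wt islets and 2.92 to 194 in Lag3-deficient islets, against at most 4.79 in NDL. Endocrine markers reached 214 and 38.2 CPM in the respective islet groups and at most 0.242 in NDL. B cell markers overlapped across groups (7.28 to 222 CPM in islets, 22.5 to 106 in NDL), with Pax5 at 0 in every library. Within that list, Ms4a1, which encodes the B cell protein CD20, was at 27.0 to 94.7 CPM in Wt islets, above the 0 to 23.3 CPM of Wt NDL, and Cd79b, a chain of the B cell receptor complex, reached 180 CPM in 1 Lag3-deficient islet library. Myeloid markers summed to 25.8 to 102 CPM in Wt islets, above the 0.145 to 15.8 CPM of Wt NDL, and overlapped between the Lag3-deficient groups (0.278 to 34.5 CPM in islets, 0.150 to 37.5 in NDL). Stromal markers overlapped between tissues as a sum (4.41 to 156 CPM in islets, 6.23 to 113 in NDL), but single genes went different ways. Pecam1 reached 113 CPM in NDL and 29.3 CPM in islets. Dcn and Col3a1 reached 76.3 and 51.5 CPM in Lag3-deficient islets, each with 1 library of at least 10 rescaled counts there. In NDL they were at most 0.182 and 0.0748 CPM. The part of these cells in the members' values was not tested.

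**Figure D2:**
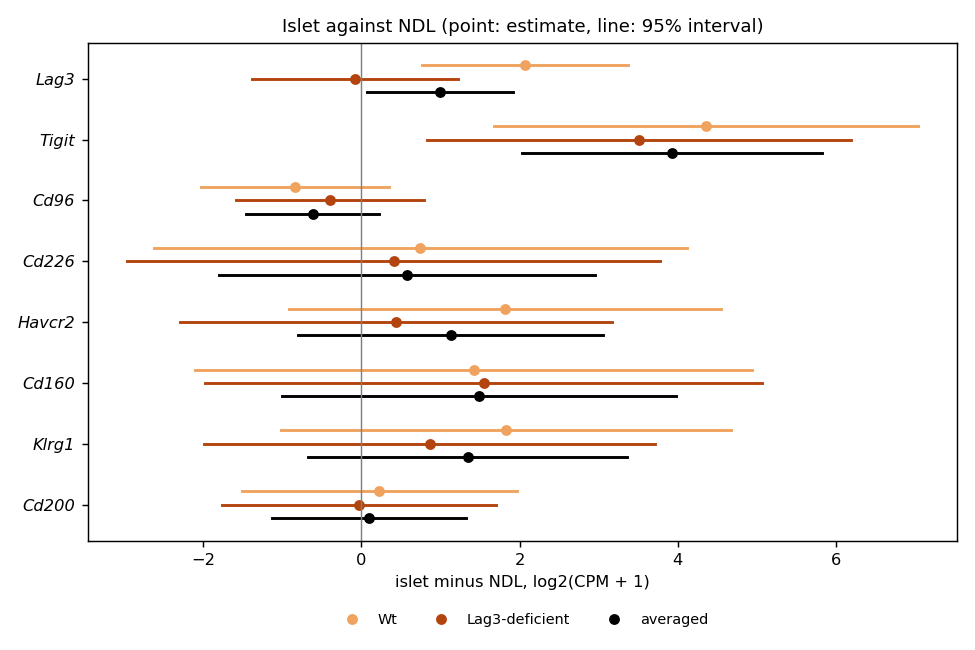
Islet minus NDL difference of each member in log2(CPM + 1), as points with 95% intervals, within Wt, within Lag3-deficient cells and averaged over both. The Tigit intervals lie above 0 in all 3, and the Cd96, Cd226, Havcr2, Cd160, Klrg1 and Cd200 intervals cross 0 in all 3.

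Cd96, a receptor that binds PVR as Tigit does, was the most abundant member per length in NDL. It was at 297, 146 and 159 CPM in Wt NDL and 270, 284 and 67.7 CPM in Lag3-deficient NDL. In islets it was at 137, 121 and 71.8 CPM in Wt and 173, 130 and 102 CPM in Lag3-deficient cells. The Wt islet libraries were all below the Wt NDL ones, while the Lag3-deficient groups overlapped through library 1b of NDL. The islet minus NDL difference was -0.84 ± 0.57 in Wt (adjusted p = 0.827) and -0.39 ± 0.57 in Lag3-deficient cells, and averaged -0.62 ± 0.40 with an interval of -1.46 to 0.22. In Wt, Tigit was higher and Cd96 lower in islets without overlap, as 14.0% of all tested genes were in either direction. Lag3 was higher without overlap too, but it was tested only through the Wt islet libraries, so that its separation here had to follow. In Lag3-deficient cells Tigit was the 1 such member, against 12.7% of genes.

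Cd226, the activating receptor for the same ligand, varied more between libraries of a group than between groups. It was at 42.9, 72.3 and 9.08 CPM in Wt islets and 74.7, 0.165 and 22.1 CPM in Lag3-deficient islets. In NDL it was at 73.0, 4.48 and 15.9 CPM in Wt and 21.2, 35.5 and 0.0748 CPM in Lag3-deficient cells. Its 3 lowest values were in the 3 libraries that skip whole numbers most. The averaged islet minus NDL difference was 0.58 ± 1.14 (adjusted p = 0.893), and the genotype differences were -1.33 ± 1.61 in islets and -0.99 ± 1.61 in NDL.

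The balance of Tigit to its partners was taken in each library as a difference of log2(CPM + 1), as a description. It was not divided by exon length, which was 919 bases for Tigit, 2184 for Cd96 and 4891 for Cd226. Its size and sign therefore do not rank the genes, and it is read only between groups. Tigit minus Cd96 was -1.21 ± 0.54 in Wt islets and -1.22 ± 0.41 in Lag3-deficient islets. In NDL it was -6.40 ± 2.26 in Wt and -5.12 ± 0.92 in Lag3-deficient cells (SD, n = 3 each). The islet libraries ran from -1.83 to -0.81 and the NDL libraries from -8.22 to -3.87, with no overlap, so that Tigit stood much nearer Cd96 in islets. Tigit minus Cd226 was 0.54 ± 1.30 in Wt islets, 2.17 ± 3.39 in Lag3-deficient islets, -3.07 ± 3.61 in Wt NDL and -0.93 ± 1.64 in Lag3-deficient NDL, and the tissues overlapped. The SD within groups was 2.40 in log2(CPM + 1) for Cd226 against 1.31 for Tigit and 0.715 for Cd96, where the median over all tested genes was 1.26.

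**Figure D3:**
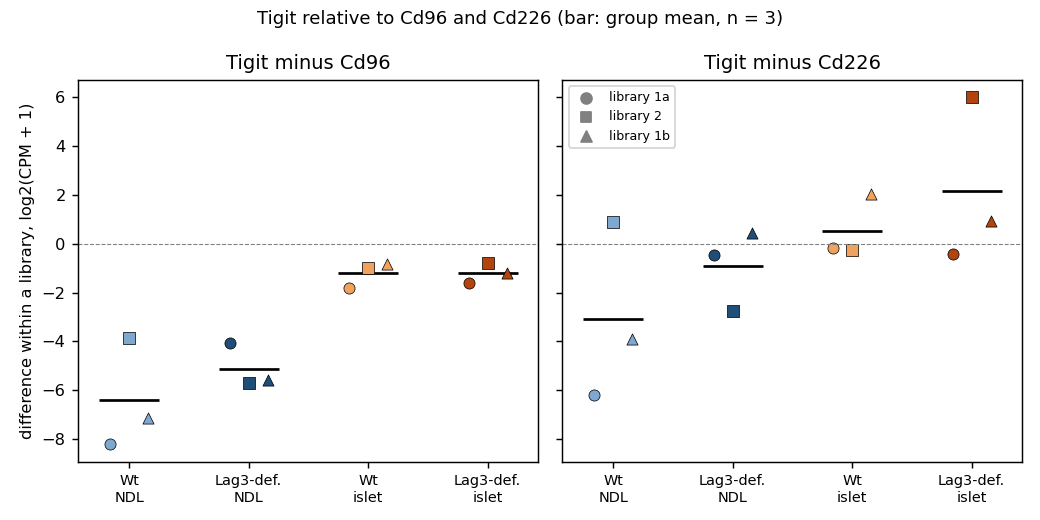
Tigit minus Cd96 and Tigit minus Cd226 in log2(CPM + 1) in each of the 12 libraries, by group. The islet libraries lie between -1.83 and -0.81 for Cd96 and do not overlap the NDL libraries, while for Cd226 the tissues overlap.

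Per length of exon, the order of the members differed between tissues. In Wt islets the highest were Tigit and Cd96, each at 50.3 CPM per kb (SD 13.7 and 15.5), then Cd200 at 26.9, Klrg1 at 14.2, Cd226 at 8.46, Cd160 at 5.55, Lag3 at 2.28 and Havcr2 at 2.24. In Lag3-deficient islets Tigit at 62.6 and Cd96 at 61.8 again led, and Lag3 was last at 0.0119, below Havcr2 at 2.86. All neighbours in these orders overlapped between libraries, other than Havcr2 and Lag3 in Lag3-deficient islets. In NDL Cd96 led alone, at 91.9 CPM per kb in Wt and 94.9 in Lag3-deficient cells, with all its libraries above those of the next gene, Cd200, at 21.2 and 17.7. Tigit was the fifth in Wt NDL, at 3.35, and the fourth in Lag3-deficient NDL, at 7.29, and overlapped its neighbours in both orders.

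Havcr2, which encodes TIM-3, was low and uneven. It was at 9.52, 0.734 and 7.9996 CPM in Wt islets, 0.829, 0.330 and 22.2 CPM in Lag3-deficient islets, 0, 2.79 and 0 CPM in Wt NDL, and 0, 16.3 and 0.299 CPM in Lag3-deficient NDL. Each group other than Wt NDL held libraries both low and high, and the tissues overlapped. Wt NDL reached only 2.79 CPM. The averaged islet minus NDL difference was 1.13 ± 0.92 (adjusted p = 0.697), and the genotype differences were -0.51 ± 1.31 in islets and 0.86 ± 1.31 in NDL.

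Cd160 encodes the HVEM-binding receptor and shares 68 exon bases with Pdzk1 on the opposite strand, so that reads there could be split either way where strand was not used. It was at 16.4, 3.15 and 24.5 CPM in Wt islets, 0, 40.5 and 66.7 CPM in Lag3-deficient islets, 3.07, 0.121 and 20.0 CPM in Wt NDL, and 0, 12.2 and 7.56 CPM in Lag3-deficient NDL. The averaged islet minus NDL difference was 1.48 ± 1.19 (adjusted p = 0.688). Its genotype differences, 0.20 ± 1.69 in islets and 0.08 ± 1.69 in NDL, had the widest errors of the 8 members in both tissues.

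Klrg1, a lectin-like receptor of terminally differentiated effector cells, was at 4.56, 9.02 and 46.6 CPM in Wt islets and 75.6, 7.98 and 26.0 CPM in Lag3-deficient islets. In NDL it was at 0, 2.85 and 14.4 CPM in Wt and 9.21, 18.2 and 14.7 CPM in Lag3-deficient cells. Its groups overlapped in every comparison of a pair. The averaged islet minus NDL difference was 1.35 ± 0.96 (adjusted p = 0.642), and Lag3-deficient minus Wt was 0.94 ± 1.36 in islets and 1.90 ± 1.36 in NDL, with intervals of -1.91 to 3.79 and -0.95 to 4.75.

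Cd200, the ligand of CD200R1, showed the averaged tissue difference nearest 0 of the 8 members. It was at 94.6, 144 and 29.8 CPM in Wt islets and 72.1, 14.8 and 113 CPM in Lag3-deficient islets. In NDL it was at 119, 49.98 and 42.9 CPM in Wt and 59.2, 93.6 and 23.7 CPM in Lag3-deficient cells. The averaged islet minus NDL difference was 0.10 ± 0.59, with an interval of -1.13 to 1.32, and it fell on the other side of 0, at -0.018, without scaling. The genotype differences were -0.57 ± 0.83 in islets and -0.31 ± 0.83 in NDL. Cd200 and Cd226 rose and fell together over the 12 libraries (Pearson r = 0.892 in log2(CPM + 1)), a description over libraries that share group and scaling, and both were lowest in Lag3-deficient islet 2 and Lag3-deficient NDL 1b. This was the highest correlation of any pair of members.

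Of the 8 members, 7 had a positive islet minus NDL difference averaged over genotypes, with a median of 1.06 in log2(CPM + 1), where all tested genes had a median of -0.04 and 47.9% were positive; without scaling, Cd200 turned negative. Of the 7, Lag3 and Havcr2 passed the filter on low values only with islet libraries, so that the count is a description. Within Wt the count was also 7 of 8, with a median of 1.62 against 0.10 over all genes. Within Lag3-deficient cells 5 of 8 were positive, with a median of 0.43 against -0.15, and Cd200 turned positive, at 0.11, with median-ratio size factors. Both Tigit and Lag3 had an unadjusted p under 0.05 in the averaged comparison, as had 11.3% of all tested genes, and both had one in Wt, as had 7.53%. Tigit was the 1 such member in Lag3-deficient cells, against 8.71% of genes.

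By genotype the members split evenly. In islets 4 of 8 were higher in Lag3-deficient cells, with a median of -0.15 against -0.22 over all tested genes. In NDL 4 of 8 were higher, with a median of -0.03 against -0.02. None of the 8 passed the adjusted test in either tissue, and no gene of the 10868 did (0% called) under limma. At an unadjusted p under 0.05, Lag3 was the 1 member in islets, where 5.74% of genes passed, and there was no member in NDL, where 2.72% did. Averaged over tissues, Lag3 was again the 1 member, with a difference of -1.31 ± 0.44 (adjusted p = 0.999), against 3.68% of genes. It was also the 1 member at that level for the difference between the genotype effects, against 4.02% of genes. No member other than Lag3 separated the genotypes without overlap in islets, and no member did in NDL, where 7.53% of genes did. Lag3 was the gene removed and was tested only through the Wt islet libraries. Its low p-values, its separation in islets and its place in these counts are therefore given only as a description.

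**Figure D4:**
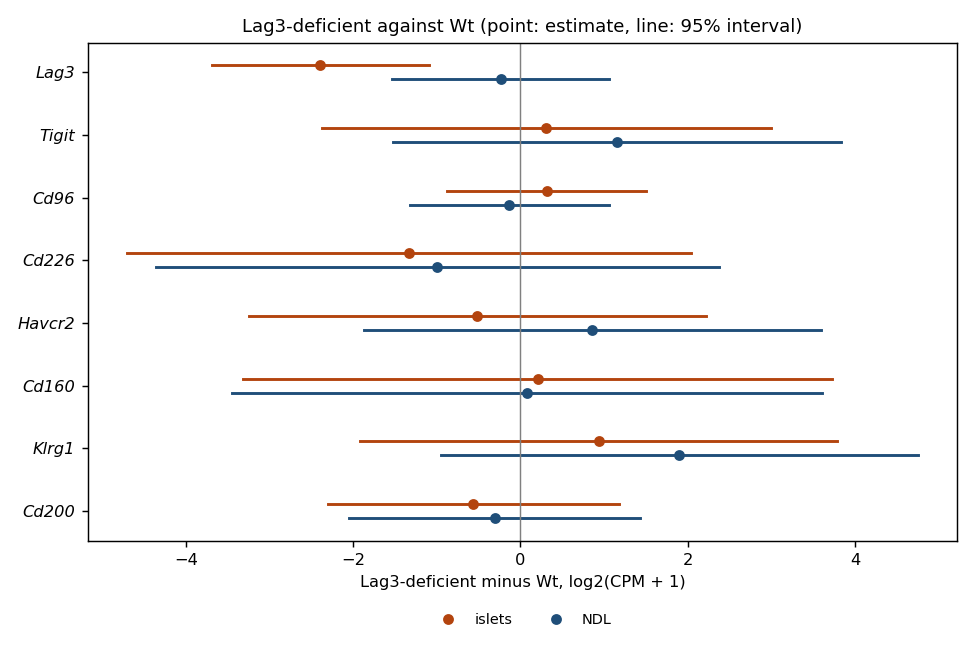
Lag3-deficient minus Wt difference of each member in log2(CPM + 1), as points with 95% intervals, in islets and in NDL. Every interval crosses 0 other than that of Lag3 in islets, and no member passed the adjusted test in either tissue.

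Of the genes listed around the receptors, those past the test by tissue were 4 transcription factors. The lists were not compared with each other by a test. Of 11 factors reported to drive inhibitory receptors, 10 were tested, 9 had a positive islet minus NDL difference averaged over genotypes, and 4 rose past the test: Nfil3, Nr4a2, Maf and Nr4a1. Nr4a2 had at least 10 rescaled counts in 6 islet and 2 NDL libraries, so that it was tested only with the islet libraries where it was high. Its call is therefore a description. The list's median difference was 1.88, and the share of all genes that passed as higher was 0.819%. These lists were chosen with earlier results of these data known, so the count is a description of the list.

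Nfil3, a basic leucine zipper factor, was at 146, 159 and 34.4 CPM in Wt islets and 190, 249 and 79.4 CPM in Lag3-deficient islets. In NDL it was at 3.50, 0.121 and 0.217 CPM in Wt and 0.911, 11.4 and 24.9 CPM in Lag3-deficient cells. All islet libraries were above all NDL libraries. The averaged difference was 4.94 ± 0.81 (adjusted p = 0.00369), and Nfil3 also rose within Wt alone, by 5.68 (adjusted p = 0.0458).

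Nr4a2 and Nr4a1 are nuclear receptors switched on by antigen receptor signals. Nr4a2 was at 30.1, 49.7 and 39.2 CPM in Wt islets and 147, 104 and 19.8 CPM in Lag3-deficient islets, and in NDL at 0, 0.182 and 0 CPM in Wt and 1.58, 0 and 7.56 CPM in Lag3-deficient cells. Nr4a1 was at 111, 82.5 and 128 CPM in Wt islets and 110, 54.8 and 61.7 CPM in Lag3-deficient islets, and in NDL at 21.9, 6.91 and 22.3 CPM in Wt and 17.4, 25.1 and 16.7 CPM in Lag3-deficient cells. For both, all islet libraries were above all NDL libraries. The averaged differences were 4.92 ± 0.92 (adjusted p = 0.0098) for Nr4a2 and 2.28 ± 0.53 (adjusted p = 0.0430) for Nr4a1.

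Maf, a factor of effector and IL-10-producing T cells, was at 465, 711 and 960.5 CPM in Wt islets and 808, 759 and 672 CPM in Lag3-deficient islets. In NDL it was at 106, 134 and 453 CPM in Wt and 89.2, 132 and 482 CPM in Lag3-deficient cells. The NDL libraries 1b stood above the other NDL libraries in both genotypes, and Lag3-deficient NDL 1b reached above the lowest Wt islet library. The averaged difference was 1.96 ± 0.41 (adjusted p = 0.0200).

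The Nfil3 and Nr4a2 calls held with each of the 12 libraries left out in turn. That of Nr4a2 remains a description here and below, since it was tested only with the islet libraries where it was high. Maf passed in 6 of the 12, with adjusted p of up to 0.0705, and was lost without Wt islet 2 or 1b, Lag3-deficient NDL 1a or 2, or Wt NDL 1a or 2. Nr4a1 passed in 2 of the 12, without Lag3-deficient islet 2 or without Wt NDL 1b, and otherwise had adjusted p of 0.0586 to 0.125. With a replicate block it was also lost (adjusted p = 0.0556). When the 1b columns were left out, or the 3 libraries that skip whole numbers most, 3 of the 4 factors passed, Nfil3, Nr4a2 and Maf. No factor passed in either genotype comparison.

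Among the listed ligands of the 8 proteins, 7 of 15 were tested, 5 had a positive averaged islet minus NDL difference and 2 a negative one, and none passed. The list held no MHC class II gene, so that it does not cover this ligand of LAG-3. The median was 0.43. Lgals3, a galectin reported to bind LAG-3, had a difference of 3.26 ± 0.92 (adjusted p = 0.115). Hmgb1, a chromatin protein that TIM-3 binds when released, was at 1773 to 2778 CPM in the islet libraries and 950 to 1524 CPM in the NDL libraries, which did not overlap, with a difference of 0.74 ± 0.21 (adjusted p = 0.116). Tnfrsf14, which encodes HVEM, had a difference of -1.88 ± 1.04 (adjusted p = 0.519). By genotype, 0 of the 7 passed in islets or NDL.

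Signalling partners of these receptors, the kinases, phosphatases and adaptors at their tails, showed no called difference. All 13 were tested, 6 positive and 7 negative by tissue, with a median of -0.02. Lck, the kinase of CD4 and the antigen receptor, differed by -0.53 ± 0.29 (adjusted p = 0.509), Sh2d1a, the adaptor SAP, by 0.62 ± 0.35 (adjusted p = 0.529) and Ptpn11, the phosphatase SHP-2, by 0.51 ± 0.37 (adjusted p = 0.644). Adam10 and Adam17, proteases that cut LAG-3 from the cell surface, differed by 0.06 ± 0.43 and -0.27 ± 0.53. Of 16 other genes, inhibitory receptors and the surface enzymes Nt5e and Entpd1, 13 were tested, 9 positive and 4 negative. Their median was 0.50 and none passed the test. Lilrb4, an immunoglobulin-like receptor, differed by 2.87 ± 0.96 (adjusted p = 0.212) and passed the filter only with islet libraries. Nt5e, the adenosine-forming enzyme CD73, differed by 1.13 ± 0.42 (adjusted p = 0.284). Lair1, a collagen receptor, differed by -1.13 ± 0.67 (adjusted p = 0.554) and passed the filter only with NDL libraries where it was high.

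**Figure D5:**
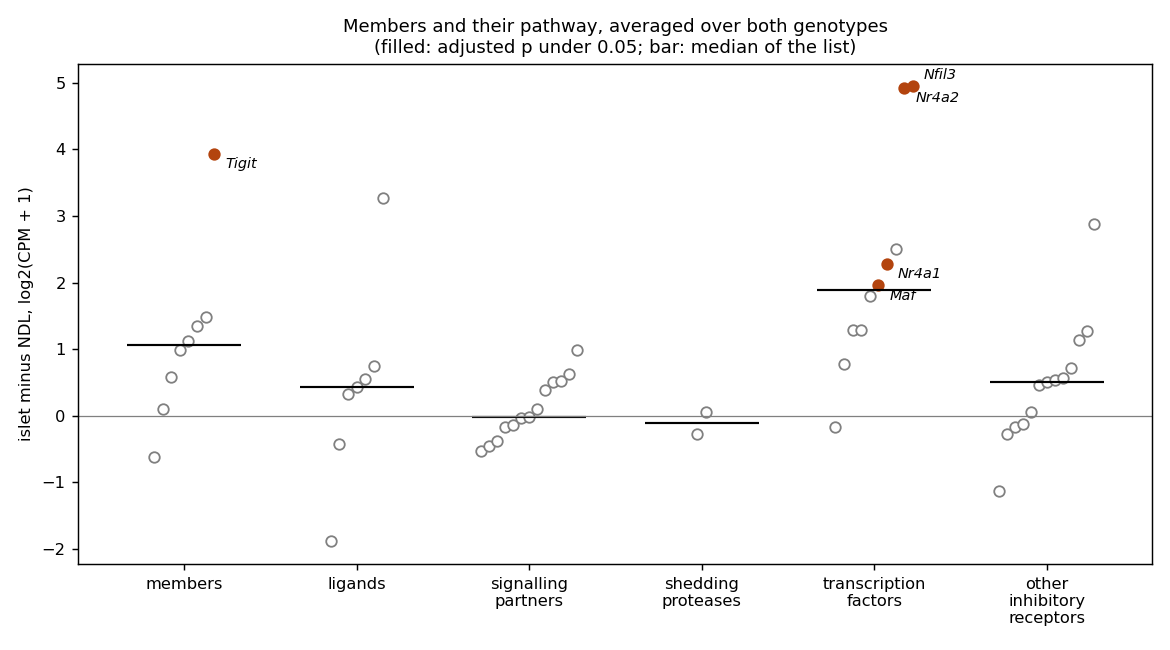
Islet minus NDL difference averaged over genotypes, in log2(CPM + 1), for the members and for each list of their pathway, with 1 point a gene and a bar at the list's median. Filled points passed the adjusted test: Tigit among the members, and Nfil3, Nr4a2, Nr4a1 and Maf among the transcription factors.

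The genes whose pattern over the 12 libraries was most like that of Tigit, by Pearson correlation of log2(CPM + 1) among 7141 genes, were H2-Ab1 (r = 0.943), Htatip2 (0.936), Gm14005 (0.912), Jun (0.908) and Gzmb (0.904). H2-Ab1 is a chain of MHC class II and Gzmb a granzyme. Whether the H2-Ab1 RNA came from the Tregs or from other cells in the libraries was not tested. H2-Ab1 was at 36.1 ± 17.3 CPM in Wt islets and 30.7 ± 21.6 CPM in Lag3-deficient islets, against 2.27 ± 3.86 and 2.81 ± 3.19 CPM in the respective NDL groups, and Jun, an AP-1 subunit, was at 141 ± 31.3 and 182 ± 56.5 CPM against 0.913 ± 1.52 and 8.18 ± 12.9 CPM (SD, n = 3 each). These are libraries that share tissue and scaling, so the correlations describe a common split by tissue. The genes most like Lag3 among 7142 were Adss (r = 0.795), Tmbim6 (0.739), Gsk3a (0.719), Hat1 (0.715) and Pola1 (0.713), all weaker. Lag3 held at least 10 rescaled counts only in the 3 Wt islet libraries. Such a ranking therefore favours genes that were high in Wt islets, and it is only a description. Pola1, a subunit of the DNA polymerase that starts replication, was at 49.2 ± 19.9 CPM in Wt islets, 7.61 ± 6.06 in Lag3-deficient islets, 14.5 ± 4.72 in Wt NDL and 3.31 ± 5.48 in Lag3-deficient NDL.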

How the data were processed

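RNA of Tregs was measured in 12 mouse libraries, 3 for each genotype and tissue, grouped by their titles. The first table deposited by the authors holds a signal in whole numbers: counts rescaled to nearly equal column sums, so that depth is unknown and no count model or counting interval applies. A second deposited table, with 10317 genes, served as an alternative signal. TopHat2, DESeq2 and mm10 are named, without roles, per the submitters' processing notes.

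CPM were computed after trimmed-mean scaling (30% of ratios, 5% of levels) and fitted as log2(CPM + 1) over the 4 groups with limma 3.58.1 in R 4.3.3 (mean-variance trend, 8 residual degrees of freedom), a scale that understates changes of low genes. The threshold was an adjusted p of 0.05. The fit was tested on simulated data. The members and lists were chosen with earlier results of these data known. Every member is named; from each list, every gene past the threshold or otherwise up to 3 with the smallest p are named, and 5 genes most like Lag3 and Tigit with an average of at least 3. Exon lengths and positions are GENCODE models on GRCm38. Alternatives were another scaling, 2 pseudocounts, other filters, voom weights, the second table, a replicate block and left-out libraries.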

Additional observations from a re-analysis of the deposited data

How the results depend on the processing

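Depth is unknown, and a member at a few rescaled counts in a library could not be resolved. The single call among members, Tigit in islet against NDL averaged over genotypes, fell to 0 members without a scale factor, with either lower pseudocount (0.25 CPM and one lower still), with no filter on low values, in the second table, and after leaving out the 1b columns or the 3 libraries that skip whole numbers most (the last chosen after seeing the data), with adjusted p of 0.0506 to 0.176. With 1 library left out, 0 to 1 members were called. The Tigit difference stayed positive under every setting run. Of all genes, 100 passed in this comparison, against 40 with no filter, 151 with voom weights, 45 when the 1b columns were left out and 65 without Wt islet 1a. Of the transcription factors, 2 passed with no filter, and 2 to 4 with 1 library left out. Another scaling moved the median of all genes by over 0.1: with median-ratio size factors from -0.22 to -0.03 for genotype in islets, from -0.15 to -0.03 for tissue in Lag3-deficient cells and from -0.24 to -0.05 for the difference of genotype effects. Without scaling it moved from -0.04 to -0.14 for tissue averaged over genotypes and from -0.15 to -0.26 for tissue in Lag3-deficient cells.

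The deviations of same-numbered libraries from their group means correlated by -0.09 to 0.16, with medians of 0.020 to 0.032 for each number. Those of differently numbered libraries correlated by -0.14 to 0.09, with a median of -0.006. These values do not decide whether libraries of the same number were paired or handled together. With a replicate block 1 member was still called, Tigit at an adjusted p of 0.0491. Of the 4 transcription factors the block ended 1 call, that of Nr4a1 (adjusted p = 0.0556).

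Of 506 values of members and contrasts recomputed under settings that left out no single library, 470 kept direction and side of the threshold, 7 kept direction alone and 29 reversed. None of the reversed values had passed the test, and the cause was not tested. For genotype in islets, Havcr2 reversed to 0.21 in the second table and 0.23 without the 3 libraries, Cd226 to 0.37 and Cd200 to 0.26 without the 3 libraries, and Cd160 to -0.34 and -0.98 with the lower pseudocounts, -1.11 with voom weights, -0.27 with the 1b columns left out and -0.58 without the 3 libraries. For genotype in NDL, Cd96 reversed to 0.45 with the 1b columns left out and 0.42 without the 3 libraries, Cd226 to 0.55 without the 1b columns, Cd160 to -0.011 and -0.33 with the lower pseudocounts, -0.69 with voom weights and -1.34 without the 3 libraries, and Cd200 to 0.12 without the 3 libraries. For tissue in Wt, Cd226 reversed to -0.18 without the 3 libraries. For tissue in Lag3-deficient cells, Lag3 reversed to 0.014 without the 3 libraries, Havcr2 to -1.40 and Cd226 to -1.66 without the 1b columns, and Cd200 to 0.11 with median-ratio factors, 0.011 in the second table and 0.15 without the 3 libraries. For tissue averaged over genotypes, Havcr2 reversed to -0.14 and Cd226 to -0.11 without the 1b columns, and Cd200 to -0.018 without scaling, -0.044 with voom weights and -0.29 without the 1b columns.

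With each library left out in turn, 458 of 507 values kept direction and side, 10 kept direction alone and 39 reversed. The ranges that crossed 0 were, for genotype in islets, -0.93 to 2.12 for Cd160, -1.15 to 0.28 for Cd200, -2.63 to 0.39 for Cd226 and -1.81 to 0.25 for Havcr2. For genotype in NDL they were -0.93 to 1.26 for Cd160, -0.74 to 0.23 for Cd200, -1.96 to 0.58 for Cd226, -0.49 to 0.54 for Cd96 and -0.45 to 1.61 for Havcr2. For tissue in Wt they were -0.25 to 0.83 for Cd200 and -0.15 to 1.68 for Cd226. For tissue in Lag3-deficient cells they were -0.62 to 0.76 for Cd200, -1.17 to 2.06 for Cd226, -0.86 to 1.75 for Havcr2 and -0.14 to 0.0012 for Lag3. For tissue averaged over genotypes they were -0.20 to 0.48 for Cd200 and -0.21 to 1.39 for Cd226, and the Tigit difference of genotype effects ran from -1.92 to 0.065.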
